A study of Homo sapiens with 20 samples.

Results

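Transcripts of 10 enzymes that make asparagine, serine, glycine, cysteine and proline, or that load serine carbon onto folate, were followed through synchronisation and proteasome inhibition in HCT-116, an established line of human colorectal carcinoma cells. The genes were taken by symbol from the 39918 Ensembl genes of the count table. They were ASNS, PHGDH, PSAT1, PSPH, SHMT2, MTHFD2, CTH, CBS, ALDH18A1 and PYCR1. All 10 had a row, and 9 of them passed the expression filter and were tested. CBS did not pass. The lowest count of any of the other 9 genes in any library was 142, so none of them passed through a single group.

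The study measured ribosome-depleted total RNA in 5 groups of 4 libraries. Asynchronous cells had neither block nor drug. For the G2 group, cells spent 16 h in 2 mM thymidine, which stalls DNA replication, then 7 h without it, and were collected with 0 h of drug. The MG132 group then received 20 µM MG132 for 3 h, the bortezomib group 100 nM bortezomib for 3 h, and a further group 20 µM MG132 with 50 µg/ml α-amanitin for 3 h. MG132 and bortezomib inhibit the proteasome, and α-amanitin inhibits RNA polymerase II. All groups except the asynchronous cells carried the thymidine block. The 3 drug groups were collected 3 h later than G2, so in a comparison with G2 the drug and the elapsed time cannot be told apart. The samples are bulk, and a change in the share of cells that express a gene and a change in RNA per cell cannot be told apart either.

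As background, asparagine synthetase (ASNS) makes asparagine from aspartate and glutamine. Serine is drawn from glycolysis by PHGDH, PSAT1 and PSPH in that order. In mitochondria SHMT2 splits serine into glycine and a folate-bound carbon unit, which MTHFD2 oxidises for the synthesis of nucleotides. CBS and CTH carry serine and homocysteine to cysteine, and ALDH18A1 and PYCR1 carry glutamate to proline. Many of these genes are known targets of ATF4, a transcription factor whose translation increases when the initiation factor eIF2α is phosphorylated, as happens in amino acid shortage and proteotoxic stress.

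Libraries held 26797395 to 39710457 counts. Whether the 4 replicates of a group were separate cultures is not stated in the labels. The p-values therefore reflect the spread among these libraries only, and that spread may be technical. G2 replicates 3 and 4 were closer to each other than any other pair of replicates, so G2 may hold fewer than 4 independent libraries. Expression is given as CPM, the usual depth-scaled count, with TMM-adjusted library sizes. Libraries differed in how counts followed GC content. Over protein-coding genes the slope was -0.500 log2 units per 10 percentage points of GC in MG132 replicate 2 and 0.791 in MG132 replicate 4, against -0.266 to 0.494 in the other 18. The 8 epithelial markers summed to 3140 to 5870 CPM per library. EPCAM, CDH1, KRT8, KRT18, KRT19 and CDX2 passed the filter, and VIL1 and CDX1 did not. The 8 fibroblast markers summed to 3.23 to 12.9 CPM, with COL1A1 as the 1 marker that passed the filter, and the 7 leukocyte markers in the table to 2.38 to 8.34 CPM, with CD68 and HLA-DRA passing. No marker was at 0 in every library.

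In MG132-treated cells ASNS, PHGDH and PSAT1 rose. ASNS was 2.37-fold above G2, PHGDH 1.69-fold and PSAT1 1.71-fold. These were 3 of the 9 tested synthesis genes, where 1.01% of all 18959 tested genes were called higher (edgeR quasi-likelihood test, adjusted p under 0.05). None of the 9 was called lower, against 1.08% of all genes. The median log2 fold change of the 9 was 0.596, with a range from -0.0485 to 1.25, beside a median of -0.031 over all tested genes.

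ASNS (ENSG00000070669.17; hg38 chromosome 7, 97852118 to 97872542, minus strand) was at 28.3, 31.6, 28.7 and 30.5 CPM in G2 replicates 1 to 4. It was at 60.4, 91.4, 61.1 and 69.6 CPM in MG132 replicates 1 to 4, so every MG132 library lay above every G2 library. The log2 fold change was 1.25 (SE 0.194, edgeR adjusted p = 0.00106). Within the sample code letters, which the labels do not explain, the difference had the same direction. In letter L, G2 replicate 1 had 28.3 CPM and MG132 replicate 2 had 91.4, and in letter O the 3 G2 libraries had 28.7 to 31.6 CPM and the 2 MG132 libraries 61.1 and 69.6. The call held without each of the 8 libraries in turn (adjusted p = 0.00131 to 0.00657). A fit of only these 8 libraries gave 1.30 and an adjusted p of 0.0516.

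The count of ASNS is uncertain, and this may reach its fold changes as well as its absolute level. A non-coding transcript, AC079781.5 (ENSG00000284707.2; chromosome 7, 97851688 to 97972985), overlaps the whole gene on the same strand, and its row held between 79.8% and 104% of the ASNS count in each library. How reads that fit both were assigned is not given in the sources used here. The AC079781.5 row also rose with MG132 (log2 fold change 1.11, SE 0.201, edgeR adjusted p = 0.00424). With bortezomib against G2 the AC079781.5 row was not called (0.57, SE 0.199, edgeR adjusted p = 0.172), while ASNS was (0.82). How far the overlap enters the ASNS fold changes was not tested.

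The ASNS promoter is shown because it holds the core of the C/EBP-ATF composite element, the DNA element through which ATF4 is known to act on this gene. Windows of 250 bases before the RefSeq start site (build GRCh38.p14) were found for 7 of the 10 genes, 10 windows in all. They were searched on both strands for TGATGNAA, the core of that element, and for the E-box CACGTG. The windows of PSPH, SHMT2 and PYCR1 were not in the table used. TGATGNAA was found in 1 window, of ASNS, 61 to 68 bases before the start site at chr7:97872458-97872487 (minus strand, 30 bases shown). These bases precede that RefSeq start site but lie inside the ASNS gene as annotated in GENCODE, which extends to 97872542. The other ASNS window did not hold TGATGNAA, and 3.14% of all 35116 windows did. CACGTG was found in 1 window, that of ALDH18A1, and 6.34% of all windows held it. The windows of PSAT1 (chr9:78296875-78297124, plus strand) and of CTH (chr1:70411018-70411217, plus strand, without 50 bases that lie in annotated exons) are shown for comparison, as both genes varied with ASNS across libraries and held neither motif in the 250 bases searched. All are written 5′ to 3′ with the motif in capitals.
ASNS: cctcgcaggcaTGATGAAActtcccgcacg
PSAT1: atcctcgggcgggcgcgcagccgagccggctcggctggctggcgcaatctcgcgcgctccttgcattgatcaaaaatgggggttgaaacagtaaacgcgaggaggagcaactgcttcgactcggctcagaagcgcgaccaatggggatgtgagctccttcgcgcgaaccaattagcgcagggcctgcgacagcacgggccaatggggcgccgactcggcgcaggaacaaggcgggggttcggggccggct
CTH: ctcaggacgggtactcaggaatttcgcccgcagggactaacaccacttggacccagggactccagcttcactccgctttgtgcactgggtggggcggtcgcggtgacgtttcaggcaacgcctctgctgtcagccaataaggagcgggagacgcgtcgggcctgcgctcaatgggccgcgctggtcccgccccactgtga
A match describes these letters only, and no binding was measured.

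Of the serine pathway, PHGDH and PSAT1, its first 2 enzymes, rose with MG132. PHGDH (ENSG00000092621.12; chromosome 1, 119648411 to 119744226), which commits 3-phosphoglycerate to serine, was at 61.3, 58.2, 50.3 and 50.1 CPM in G2 replicates 1 to 4. In MG132 replicates 1 to 4 it was at 90.6, 82.2, 76.8 and 123 CPM, all above G2 (log2 fold change 0.76, SE 0.178, edgeR adjusted p = 0.0276). PSAT1 (ENSG00000135069.14; chromosome 9, 78297143 to 78330093), the transaminase of the next step, was at 94.2, 113, 84.1 and 84.4 CPM in G2. In MG132 it was at 152, 189, 151 and 152 CPM, so that 3 libraries lay within 2 CPM of each other, replicate 2 stood above them, and no library overlapped G2 (log2 fold change 0.78, SE 0.180, edgeR adjusted p = 0.026). PSPH (ENSG00000146733.14; chromosome 7, 56011051 to 56051604), the phosphatase that releases serine, had 24.4 to 34.4 CPM in G2 and 33.8 to 53.6 in MG132. Its groups overlapped and it did not pass (0.54, SE 0.202, edgeR adjusted p = 0.225).

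The calls for PHGDH and PSAT1 were close to the threshold, while their log2 fold changes stayed positive under every alternative run. PHGDH lost its call without G2 replicate 2 (adjusted p = 0.0694), G2 replicate 3 (0.0836), G2 replicate 4 (0.0961) or MG132 replicate 1 (0.0626). PSAT1 lost it without G2 replicate 1 (0.0678), replicate 3 (0.0831) or replicate 4 (0.0944), or without MG132 replicate 1 (0.0556), replicate 2 (0.0661) or replicate 3 (0.0708). With the replicate number as a block, PHGDH had an adjusted p of 0.0672 and PSAT1 one of 0.0622, and with the code letter as a block 0.0837 and 0.065.

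The mitochondrial folate enzymes did not pass in MG132-treated cells and were uneven among the MG132 libraries. MTHFD2 (ENSG00000065911.12; chromosome 2, 74198562 to 74217565), a dehydrogenase and cyclohydrolase, was at 395, 398, 338 and 344 CPM in G2 replicates 1 to 4. In MG132 replicates 1 to 4 it was at 486, 931, 564 and 249 CPM. Replicates 1 to 3 lay above every G2 library and replicate 4 below every one. The log2 fold change was 0.60 (SE 0.264, edgeR adjusted p = 0.358), and it depended on single libraries. Without MG132 replicate 4 it was 0.841 (adjusted p = 0.0266), without MG132 replicate 2 it was 0.233 (adjusted p = 0.839), and in code letter O alone 0.177. SHMT2 (ENSG00000182199.11; chromosome 12, 57229327 to 57234935), the mitochondrial serine hydroxymethyltransferase, ran the other way, at 266, 184, 303 and 380 CPM in MG132 replicates 1 to 4 against 192 to 298 in G2 (0.22, SE 0.231, edgeR adjusted p = 0.865).

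The transsulfuration enzyme CTH (ENSG00000116761.12; chromosome 1, 70411218 to 70439851), which releases cysteine from cystathionine, had the lowest level of the 9. It was at 8.34, 8.73, 7.61 and 7.62 CPM in G2 replicates 1 to 4. In MG132 replicates 1 to 4 it was at 12.2, 17.8, 14 and 9.32 CPM. All MG132 libraries lay above G2, and CTH was not called (log2 fold change 0.72, SE 0.201, edgeR adjusted p = 0.0717). It was called without MG132 replicate 4 (0.859, adjusted p = 0.0154) and by DESeq2 (0.764, adjusted p = 0.0135), while without MG132 replicate 2 it was at 0.551 (adjusted p = 0.217). With ASNS, PHGDH and PSAT1 it brought the tested genes whose MG132 libraries all exceeded G2 to 4 of 9, where 2.07% of all tested genes did so.

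CBS (ENSG00000160200.18; chromosome 21, 43053191 to 43076943), which makes cystathionine, could not be assessed. Its row held 27 counts over all 20 libraries and at most 7 in a library. The hg38 assembly carries a second, near-identical gene model, CBSL (ENSG00000274276.4), on the same chromosome, and the CBSL row held between 0 and 2 counts per library. How reads that align to both copies were treated is not given in the sources used here, so the row does not show whether CBS was expressed, and no fold change is given.

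The proline enzymes were not called in MG132-treated cells. ALDH18A1 (ENSG00000059573.9; chromosome 10, 95605929 to 95656706), which reduces glutamate, had 100 to 158 CPM in G2 and 123 to 184 in MG132 (0.26, SE 0.201, edgeR adjusted p = 0.75). PYCR1 (ENSG00000183010.17; chromosome 17, 81932384 to 81942412), the mitochondrial reductase that completes proline, was at 237, 227, 166 and 165 CPM in G2 replicates 1 to 4. In MG132 replicates 1 to 4 it was at 173, 108, 203 and 283 CPM, a wider range than that of G2 around a similar mean (-0.05, SE 0.259, edgeR adjusted p = 0.982).

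**Figure D1:**
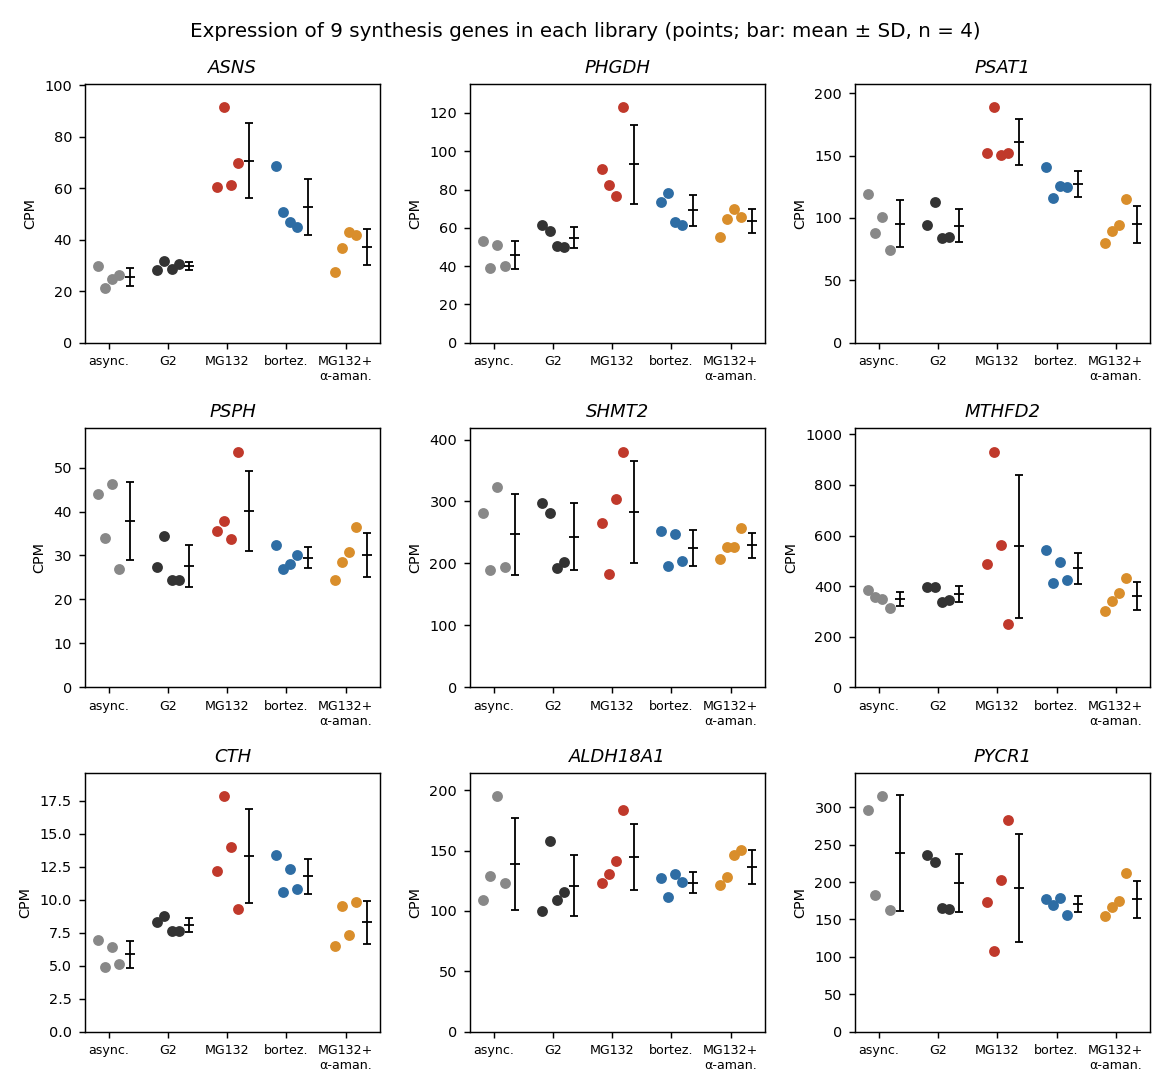
CPM on a linear axis from 0 for the 9 tested genes, with 1 point per library in each of the 5 groups and the mean ± SD (n = 4) beside them. ASNS, PHGDH and PSAT1 stand above G2 in every MG132 library, and MTHFD2 spreads from 249 to 931 CPM in MG132.

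The spread among MG132 libraries ran with the GC content of the transcripts. The longest annotated transcripts of the 9 genes had between 41.4% GC (MTHFD2) and 61.8% (PYCR1). In MG132 replicate 2, MTHFD2 was 1.19 log2 units above the mean of the other 3 MG132 libraries, and PYCR1 0.989 below it (a deviation of -0.989). In replicate 4 the signs were opposite, at -1.35 for MTHFD2 and 0.857 for PYCR1, and SHMT2, at 57.0% GC, had -0.770 in replicate 2 and 0.632 in replicate 4. PSAT1 departed from its GC neighbours, with 0.316 in replicate 2 and -0.101 in replicate 4. An offset for GC content and length in each library gave 5 called genes in place of 3. Over all 18959 tested genes it gave 458 called higher in place of 191. It added CTH (0.754, adjusted p = 0.0284) and PSPH (0.62, adjusted p = 0.0381). It kept ASNS (1.31, adjusted p = 7.37e-05), PHGDH (0.814, adjusted p = 0.00047) and PSAT1 (0.88, adjusted p = 0.0467). Without the 4 libraries of steepest slope, asynchronous replicate 3, G2 replicate 2 and MG132 replicates 2 and 4, ASNS alone was called (1.03, adjusted p = 0.0188), with PSAT1 at 0.76 (0.0652) and PHGDH at 0.606 (0.122).

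**Figure D2:**
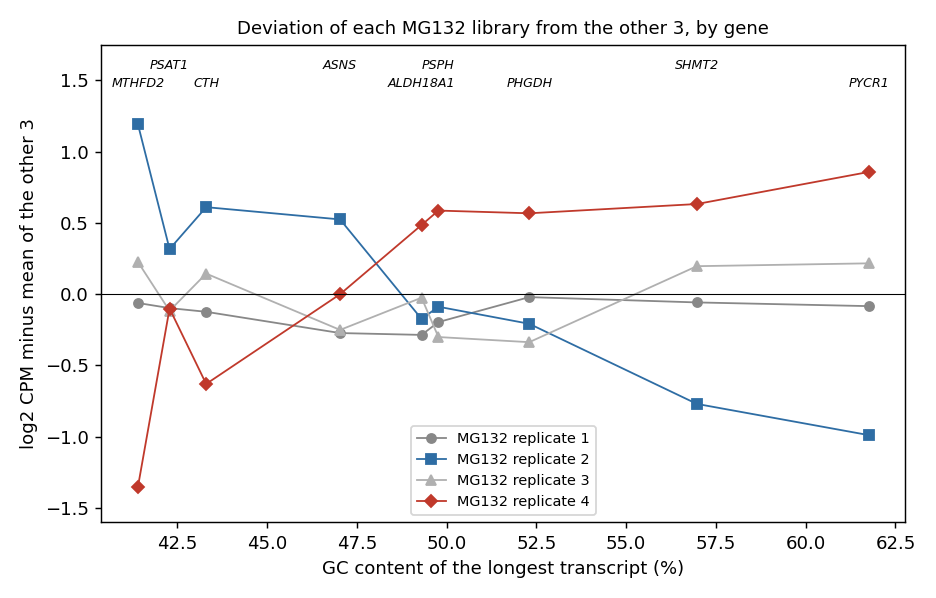
Deviation of each MG132 library from the mean of the other 3 (log2 CPM) against the GC content of the longest transcript (percent), with 1 line per library and 1 point per gene. Replicate 2 falls from 1.19 for MTHFD2 to -0.989 for PYCR1, replicate 4 runs from -1.35 to 0.857, and replicates 1 and 3 stay within 0.337 of the mean of the others.

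Bortezomib was compared with G2 to see whether a second proteasome inhibitor moved the same enzymes. ASNS rose, by 1.77-fold. It was at 68.4, 50.7, 46.9 and 44.9 CPM in bortezomib replicates 1 to 4, all above the G2 maximum of 31.6 (log2 fold change 0.82, SE 0.193, edgeR adjusted p = 0.0387). It was the 1 called gene of the 9, where 0.491% of all tested genes were called higher. That call was lost without each of the 8 libraries in turn, with adjusted p from 0.053 without bortezomib replicate 3 to 0.196 without replicate 1, and its log2 fold change then ranged from 0.674 to 0.896. With the replicate block the adjusted p was 0.0901.

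The other enzymes did not pass with bortezomib. PSAT1 was at 141, 116, 126 and 125 CPM in bortezomib replicates 1 to 4 (0.43, SE 0.179, edgeR adjusted p = 0.267), and PHGDH at 73.5, 78.1, 63 and 61.7 (0.33, SE 0.178, edgeR adjusted p = 0.409). CTH had 10.6 to 13.4 CPM (0.54, SE 0.201, edgeR adjusted p = 0.203). MTHFD2 was at 542, 414, 496 and 426 CPM, a narrower range than in MG132 (0.35, SE 0.263, edgeR adjusted p = 0.539). In these 4 genes and ASNS every bortezomib library lay above every G2 library, 5 of 9, where 7.66% of all tested genes did so. PSPH (0.09), ALDH18A1 (0.03), SHMT2 (-0.11) and PYCR1 (-0.22) overlapped G2, and the median of the 9 was 0.330 beside -0.015 over all tested genes. The comparisons of MG132 and of bortezomib share the 4 G2 libraries, so their values are not independent.

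MG132 and bortezomib were then set against each other at 3 h, at doses that were not matched (20 µM and 100 nM). None of the 9 genes was called by edgeR, DESeq2 or limma-voom, where edgeR called 0.0369% of all tested genes, and 3 had an unadjusted p under 0.05, as did 4.05% of all tested genes. ASNS was at 70.6 ± 14.5 CPM with MG132 and 52.7 ± 10.7 with bortezomib (SD, n = 4), a log2 difference of 0.42 with an approximate 95% interval of 0.013 to 0.83 (edgeR adjusted p = 0.983). PHGDH differed by 0.43 (interval 0.0524 to 0.81, edgeR adjusted p = 0.983) and PSPH by 0.45 (0.0191 to 0.88, edgeR adjusted p = 0.983). For PSAT1 the difference was 0.34 (interval -0.0394 to 0.725, edgeR adjusted p = 0.983), for CTH 0.18 (-0.248 to 0.604) and for MTHFD2 0.25 (-0.313 to 0.809). PSPH and PSAT1 had every MG132 library above every bortezomib library, 2 of 9, where 1.74% of all tested genes did so. The estimates of all 9 were positive in the fit of all libraries, from 0.170 to 0.450, but 4 of them changed sign elsewhere. MTHFD2 was at -0.116 without MG132 replicate 2, -0.0351 with the code letter block and -0.416 in letter O alone. PYCR1 was at -0.0776 without MG132 replicate 4 and -0.06 with the letter block. CTH was at -0.0529 with the letter block and -0.199 in letter O alone, where ASNS was at -0.0702. The values in letter O alone rest on replicate 1 as the only bortezomib library. Bortezomib replicates 2, 3 and 4 have the letters P, Q and W, which no G2 or MG132 library has. The intervals of the fit of all libraries leave room for differences of more than 0.6 log2 units in each gene.

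**Figure D3:**
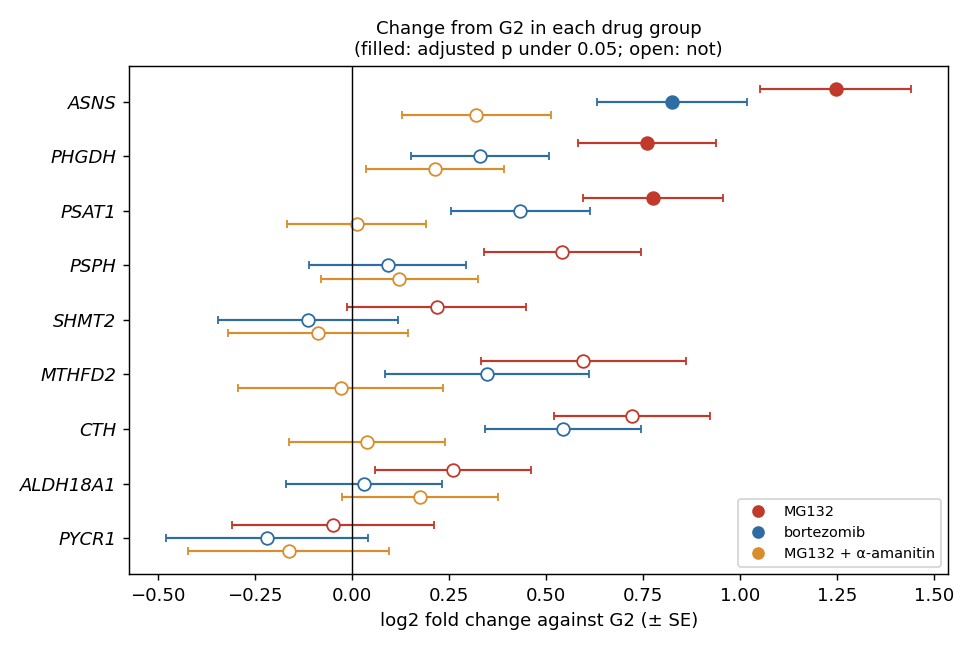
Log2 fold change against G2 with its SE for the 9 genes in the MG132, bortezomib and MG132 with α-amanitin groups, filled where the adjusted p was under 0.05. ASNS is filled for MG132 (1.25) and bortezomib (0.82), PHGDH and PSAT1 for MG132, and none for MG132 with α-amanitin, where the values run from -0.162 to 0.320.

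MG132 with α-amanitin was compared with MG132 alone to ask which levels change when RNA polymerase II is inhibited during the 3 h of drug. ASNS and PSAT1 were lower with the toxin than with MG132 alone, 2 of 9, where 1.51% of all tested genes were called lower. ASNS was at 27.3, 36.8, 42.9 and 41.8 CPM in replicates 1 to 4 of MG132 with α-amanitin, each below the MG132 minimum of 60.4 (log2 fold change -0.93, SE 0.193, edgeR adjusted p = 0.0105). PSAT1 was at 80, 89.2, 94.5 and 115 CPM, each below the MG132 minimum of 151 (-0.76, SE 0.180, edgeR adjusted p = 0.0267). PHGDH, at 55, 64.6, 69.8 and 65.5 CPM, also lay below every MG132 library and did not pass (-0.55, SE 0.178, edgeR adjusted p = 0.144). These 3 made up the genes with no overlap, where 4.01% of all tested genes had none in that direction. CTH had 6.51 to 9.81 CPM (-0.68, SE 0.201, edgeR adjusted p = 0.0918) and MTHFD2 300 to 433 (-0.63, SE 0.264, edgeR adjusted p = 0.308). This comparison and that of MG132 against G2 share the MG132 libraries, so their values are not independent. An MG132 library that is high for a gene moves both.

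All 9 estimates of this comparison were negative in the fit of all libraries, from -0.925 for ASNS to -0.0836 for ALDH18A1, beside a median of 0.022 over all tested genes. The direction did not hold for 3 of them. ALDH18A1 was at 0.0511 without MG132 replicate 4, 0.0504 without the 4 libraries of steepest GC slope and 0.0789 with total library size. PYCR1 was at 0.133 without MG132 replicate 4, 0.0323 with total library size and 0.00943 with the code letter block. MTHFD2 was at 0.0928 in letter O alone, where replicate 4 was the only library of MG132 with α-amanitin. CPM is a share of each library, so a fall of RNA polymerase II transcripts in general does not show in these values. The ASNS call was lost without α-amanitin replicate 1 (-0.803, adjusted p = 0.0655), and without the 4 libraries of steepest GC slope (-0.705, adjusted p = 0.0844). PSAT1 was not called without α-amanitin replicate 1 (adjusted p = 0.136), replicate 2 (0.107) or replicate 3 (0.0788), without MG132 replicate 2 (0.0742) or replicate 3 (0.0528), or with the replicate block (0.0699). DESeq2 called PHGDH (-0.591, adjusted p = 0.0317) and CTH (-0.721, adjusted p = 0.0216) lower. So did edgeR with the GC and length offset (-0.631, adjusted p = 0.00458, and -0.715, adjusted p = 0.0387). Over all 18959 tested genes DESeq2 called 493 lower and the offset 665, in place of 286. MTHFD2 and CTH were called without MG132 replicate 4 (-0.872, adjusted p = 0.0241, and -0.823, adjusted p = 0.022). Without MG132 replicate 2, MTHFD2 was at -0.263 (adjusted p = 0.812) and CTH at -0.515 (0.301), and without α-amanitin replicate 1 CTH was at -0.584 (0.349).

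Cells given both agents were also compared with G2. None of the 9 genes was called by edgeR, DESeq2 or limma-voom, where edgeR called 3.35% of all tested genes, and 0 had an unadjusted p under 0.05, as did 14.4% of all tested genes. ASNS was at 37.2 ± 7.11 against 29.8 ± 1.56 CPM in G2 (SD, n = 4; log2 fold change 0.32, approximate 95% interval -0.0881 to 0.728, edgeR adjusted p = 0.498). PSAT1 was at 94.8 ± 15 against 93.9 ± 13.5 CPM (0.01, interval -0.369 to 0.395, edgeR adjusted p = 0.989). PHGDH differed by 0.21 (interval -0.165 to 0.592), CTH by 0.04 (-0.389 to 0.465) and MTHFD2 by -0.03 (-0.59 to 0.531). The groups overlapped in all 9 genes.

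The synchronisation itself was assessed in G2 against asynchronous cells. None of the 9 was called by edgeR, DESeq2 or limma-voom, where edgeR called 2.09% of all tested genes, and 2 of them, CTH and PSPH, had an unadjusted p under 0.05, as did 13.1% of all tested genes. CTH was at 6.97, 4.93, 6.45 and 5.09 CPM in asynchronous replicates 1 to 4, each below every G2 library (log2 fold change 0.465, SE 0.202, edgeR adjusted p = 0.312), and 5.75% of all tested genes had G2 libraries entirely above. PSPH was at 44.1, 34, 46.2 and 27 CPM in asynchronous cells and overlapped G2 (-0.45, SE 0.202, edgeR adjusted p = 0.328). ASNS was at 21.1 to 29.7 CPM (0.23, edgeR adjusted p = 0.724), and SHMT2 (-0.02), PSAT1 (-0.02) and MTHFD2 (0.07) had estimates near 0. The median of the 9 was -0.0211, beside -0.042 over all tested genes.

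Levels were compared between genes per length, as CPM per kb of the longest annotated transcript. In G2, PYCR1 was at 104 ± 20.3, MTHFD2 at 82.8 ± 7.21 and SHMT2 at 71.2 ± 15.7 CPM per kb (SD, n = 4), and neighbours in that order did not differ beyond their spread. PSAT1 (42.9 ± 6.18) and ALDH18A1 (36 ± 7.55) followed, then PHGDH (17.3 ± 1.78), PSPH (12.7 ± 2.18) and ASNS (12.6 ± 0.66), and CTH (3.95 ± 0.272) was lowest. ASNS and PSPH were not apart beyond their spread. Over the summed exons of each gene in place of the longest transcript, MTHFD2 (75.8) came before PYCR1 (68.7), and PSPH (10) and ASNS (6.68) before PHGDH (5.96). With MG132, ASNS reached 30 ± 6.15 CPM per kb, beside 29.3 ± 6.5 for PHGDH, and over summed exons the levels were 15.9 and 10.1.

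SHMT2, PYCR1 and MTHFD2 had higher levels per length than 4 enzymes that share their reactions. SHMT2 was at 71.2 CPM per kb in G2 and SHMT1, its cytosolic counterpart, at 20.9 ± 3.09. PYCR1 stood at 104 against 10.6 ± 2.53 for PYCR3, which carries out the same reaction. MTHFD2 was at 82.8 against 5.2 ± 1.86 for MTHFD2L, its close mitochondrial relative, and 21.9 ± 2.23 for the cytosolic trifunctional enzyme MTHFD1. None of these 4 partners was called in any of the 6 comparisons. With MG132 against G2 their log2 fold changes were 0.05 for SHMT1, 0.21 for MTHFD2L, 0.06 for MTHFD1 and -0.50 for PYCR3 (edgeR adjusted p = 0.448).

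**Figure D4:**
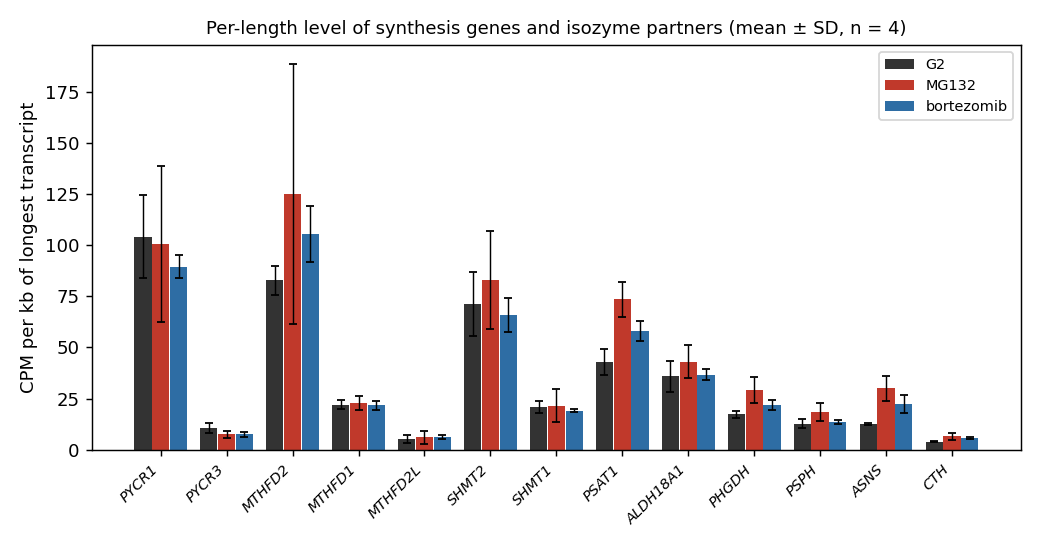
CPM per kb of the longest transcript (mean ± SD, n = 4) for the 9 genes and 4 isozyme partners in G2, MG132 and bortezomib. PYCR1, MTHFD2 and SHMT2 are highest, and ASNS goes from 12.6 in G2 to 30 in MG132.

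Other enzymes of the same pathways were put through the same test. Of 52 further enzymes of serine, glycine, folate, methionine, cysteine, proline, glutamate, aspartate, alanine, branched-chain and arginine metabolism, 44 were tested. With MG132 against G2, edgeR, DESeq2 and limma-voom called 0 of the 44, where edgeR called 1.01% of all tested genes higher and 1.08% lower. At those shares 0 of 44 does not set these enzymes apart from other genes. Of the 44, 8 had an unadjusted p under 0.05 in edgeR, as did 11.8% of all tested genes. Their median log2 fold change was -0.00381. The smallest p-values were those of GCLC and GCLM, the subunits of the enzyme that commits cysteine to glutathione (0.78, edgeR adjusted p = 0.151, and 0.77, edgeR adjusted p = 0.165). They were followed by NAGS, which makes N-acetylglutamate (-0.70, edgeR adjusted p = 0.191), and the mitochondrial alanine transaminase GPT2 (0.49, edgeR adjusted p = 0.202). With the GC and length offset GCLC, GPT2 and the cytosolic aspartate transaminase GOT1 were called higher.

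With bortezomib edgeR and limma-voom called 0 of the 44, where edgeR called 218 of 18959 tested genes. It gave 6 of the 44 an unadjusted p under 0.05 (14.5% of all tested genes had one). DESeq2 called GCLC and GCLM. GCLM was at 98 CPM with bortezomib and 51.9 in G2 (0.92, edgeR adjusted p = 0.0943), and GCLC at 106 and 58.1 (0.87, edgeR adjusted p = 0.106). In MG132 with α-amanitin against G2, MAT2A was lower, the 1 gene of the 44 that edgeR called, where it called 3.35% of all tested genes. It encodes the catalytic subunit that makes S-adenosylmethionine, and it was at 118 ± 25.1 against 243 ± 29 CPM (n = 4; -1.04, SE 0.209, edgeR adjusted p = 0.00698). DESeq2 also called ALDH1L2, a mitochondrial folate enzyme, higher in that comparison, and the GC and length offset NAGS lower. In MG132 with α-amanitin against MG132, edgeR, DESeq2 and limma-voom called 0 of the 44, where edgeR called 415 of 18959 tested genes. Of the 44, 5 were at an unadjusted p under 0.05 in edgeR, as were 12.5% of all tested genes. With the GC and length offset GOT1 and GPT2 were called lower there.

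The transcript of ATF4 itself rose with MG132. It was at 337.9, 460.4, 419.1 and 538.5 CPM in MG132 replicates 1 to 4 against 222.8 to 258.7 in G2 (log2 fold change 0.89, SE 0.217, edgeR adjusted p = 0.036). With bortezomib it had 316 to 404 CPM, above every G2 library, and did not pass (0.66, SE 0.216, edgeR adjusted p = 0.144). With α-amanitin and MG132 it was at 210 ± 54.8 CPM, lower than with MG132 alone (-1.07, SE 0.218, edgeR adjusted p = 0.0092). MYC, another transcription factor known to act on serine and proline synthesis genes, did not pass with MG132 (-0.17, edgeR adjusted p = 0.882). It was lower with α-amanitin and MG132 than with MG132, at 104 ± 6.43 against 276 ± 41.2 CPM (-1.41, edgeR adjusted p = 0.000395). The ATF4 and MYC calls were not followed through the alternatives.

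Across the 20 libraries ASNS varied with CTH, PSAT1 and PHGDH. Pearson's r of log2 CPM was 0.892 with CTH, 0.876 with PSAT1 and 0.868 with PHGDH. PYCR1 varied with SHMT2 (0.834) and not with these, at -0.298 with ASNS and -0.458 with MTHFD2. Among 13746 other protein-coding genes the pattern of ASNS was most like those of ZFAND2A (r = 0.935), TEX19 (0.934) and AC022506.1 (0.932). That of PHGDH was most like PGF (0.952), PCK2 (0.938) and P4HA2 (0.936), and HERPUD1 (0.923) and CCNB1IP1 (0.912) were among the 3 most like PSAT1. PYCR1 was most like HDAC3 (0.958), APH1A (0.944) and PPP4C (0.944), and MTHFD2 most like TEX10 (0.92), SNX5 (0.9) and PMAIP1 (0.898). These are descriptions over 20 libraries that share group structure and GC slopes.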

How the data were processed

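The deposited file is 1 table of unnormalised whole-number counts for 39918 genes and 1174 repeat subfamilies in 20 libraries, and 0 columns were left out. Per the labels' protocols, total RNA was isolated in TRIzol, freed of DNA, and used for stranded libraries after removal of ribosomal RNA. Tools named in the submitters' processing notes are cutadapt 1.18, FastQC and STAR, with hg38 as the build, and their roles are not stated. Not given in the sources used here are the counting tool, annotation, strand setting and treatment of multiply aligned reads. Groups came from the sample titles. Gene positions, lengths and GC content are from GENCODE release 29.

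A single edgeR 4.0.16 model held genes and repeats (R 4.3.3; filterByExpr, TMM, robust quasi-likelihood test, 1 mean per group, 15 residual degrees of freedom), and p-values were adjusted by Benjamini-Hochberg over 18959 genes. Log2 fold changes are given with the SE implied by the F statistic, and approximate 95% intervals use 15 degrees of freedom. The fit was also run on simulated counts with independent libraries and no GC slopes, a simpler setting than these data. Pairs of replicates differed with a chi-square of 8.75 to 449.6 per degree of freedom, and each library was kept as its own sample. The lowest value, 8.75, was that of G2 replicates 3 and 4, both of code letter O. The other G2 pairs had 163.8 to 244.0. Whether replicates 3 and 4 are independent was not tested. P-values and counts of non-overlap against G2 may therefore rest on fewer than 4 independent G2 libraries. Alternatives were RLE and total library size scaling, no filter and a stricter one (4 or more libraries with a CPM of 1 or more), limma-voom (limma 3.58.1), DESeq2 1.42.0, subsets of libraries, blocks for replicate number and code letter, and an offset for GC content and length (prior count 2, loess span 0.5). GC content was known for 98.6% of tested genes. The genes, lists, motifs and alternatives were chosen with earlier results of these data known. Named genes were the 10 members, their isozyme partners, ATF4, MYC, up to 4 of the 52 other enzymes per comparison by smallest p, and the 3 most correlated genes of a member. A few genes that this rule names are not reported here.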

Additional observations from a re-analysis of the deposited data

Results flagged for a closer look

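PSAT1 in the MG132 group had 1 library far from the other 3. Replicate 2 was at 189 CPM and the others at 151, 152 and 152 CPM, a gap to its nearest neighbour of 0.96 of the group's whole range. The same library had a GC slope of -0.500 log2 units per 10 percentage points, and the part of that slope in the PSAT1 value was not tested. Of 45 groups of 4 examined (9 genes in 5 groups) this was 1, and chance gives about 1 in 20.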

How the results depend on the processing

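No log2 fold change of a called member changed sign in any alternative of its comparison. For MG132 against G2, 3 of the 9 genes were called. Total library size, no filter, the replicate block, the code letter block and the omission of the 4 GC-skewed libraries each called 1, ASNS in each case. The fit of the 2 groups alone and the libraries of letter O alone called 0, and the GC and length offset 5. Leaving out 1 library gave 1 to 5. For bortezomib against G2, 1 gene was called, and no filter, the strict filter, the replicate block, the code letter block and letter O alone gave 0, as did leaving out any 1 library (0 to 0). For MG132 with α-amanitin against MG132, 2 were called. Total library size, no filter, the replicate block and the code letter block gave 1, DESeq2 and the GC and length offset 4, and the 2 groups alone, letter O alone and the omission of the 4 libraries 0. Leaving out 1 library gave 0 to 4. The other 3 comparisons called 0 of the 9 in every alternative run. Letter O alone leaves 1 bortezomib library and 1 library of MG132 with α-amanitin. For the fits with fewer libraries the cause is in part their construction, and otherwise the cause was not tested.

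Over all genes, MG132 against G2 called 395. It called 15 with letter O alone, 86 in the fit of the 2 groups, 204 with the code letter block, 258 with the replicate block, 647 with DESeq2 and 854 with the offset, and 203 to 673 without 1 library. Bortezomib called 218 and, over the alternatives, 1 to 651. MG132 with α-amanitin called 415 against MG132 (0 to 869) and 636 against G2 (0 to 1102), G2 against asynchronous cells 397 (0 to 1139), and MG132 against bortezomib 7 (0 to 19). Scaling to total library size shifted the all-gene median in MG132 against G2 from -0.031 to -0.15, and the share of calls that were higher from 48.4% to 30.2% (60% with RLE). In bortezomib against G2 that share went from 42.7% to 30.2%, and in MG132 with α-amanitin against MG132 from 31.1% to 41.4%. Same-numbered replicates deviated together in some comparisons and in none for all 4 pairs. Over 0.1 were 1 of 4 correlations in MG132 against G2 (-0.454 to 0.337), 2 of 4 in MG132 with α-amanitin against MG132 (0.0297 to 0.526), and 2 of 4 in G2 against asynchronous cells (-0.61 to 0.615). In the MG132 groups replicates 1, 2 and 4 also share a code letter. The numbers were therefore not taken as a pairing, and the replicate block is an alternative only. CBS, with at most 7 counts in a library, could not be assessed, for a reason that was not tested. CTH, with 227 to 336 counts per G2 library, carries visible counting error.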
